A study of Mus musculus with 64 samples.

Results

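Granulocyte-monocyte progenitors (GMP) are the cells of the fetal liver from which neutrophils and monocytes arise, and here those of Smarcd2 mutant fetuses were set against those of wild-type fetuses. Of the 64 libraries of the series, 6 carry this comparison, namely every GMP library whose column is named KO or WT. The 3 KO libraries came from Smarcd2 -/- fetuses and carry the numbers 6, 13 and 15 in their titles. The 3 WT libraries came from Smarcd2 +/+ fetuses and carry the numbers 2, 5 and 12. A further 7 GMP libraries from Smarcd2 +/- fetuses (HET) entered the fit for its estimate of the spread, and CMP and MEP libraries of the same design (common myeloid and megakaryocyte-erythroid progenitors; 4 KO and 3 WT libraries each) are given beside some results. Cells were sorted as CD45+ and CD34+, high for CD16/32 and negative for lineage markers and Sca-1. All animals were C57BL/6 fetuses of undetermined sex. They are labelled 13 to 14 days post coitum, except for 1 CMP HET library (HET 1) labelled 14.5 days. The labels give neither the design of the allele nor the number of cells sorted, and they do not state that each library is a separate fetus. The p-values therefore measure the spread between libraries, which may be technical in part.

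BAF, the SWI/SNF complex of mammals, slides nucleosomes with the energy of ATP and so opens promoters and enhancers to transcription factors, and SMARCD2 is among its subunits. In humans, inherited loss of SMARCD2 is known as a cause of specific granule deficiency, in which neutrophils lack the proteins of their secondary granules. Neutrophil granules are filled in order as the cell matures. Primary granules, with myeloperoxidase and serine proteases, are made at the GMP and promyelocyte stage, and secondary and tertiary granules follow under the control of C/EBP factors.

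KO GMP libraries had almost no reads of the calprotectin genes S100a8 and S100a9, of the cathelicidin gene Camp, of the monocyte surface antigen gene Ly6c2 or of the eosinophil-associated ribonuclease genes Ear1 and Ear2. Levels of the cell cycle inhibitor gene Cdkn1a and the immediate early gene Egr1 were higher in all 3 KO libraries than in any WT library. In all, 25 of 12239 genes passed an adjusted p of 0.05 (edgeR quasi-likelihood test, Benjamini-Hochberg over all genes tested), 0.204% of those tested. Of these, 5 rose (0.0409%) and 20 fell (0.163%), and 789 genes had an unadjusted p under 0.05. The count depended on single libraries. It was 6 without KO 6, 222 without KO 13 and 11 without KO 15, 5 without WT 2, WT 5 or WT 12, and 15 or 16 without HET 1, 3, 4, 9 or 10. All 25 genes kept their direction in each of these fits, and Smarcd2 and Ly6c2 passed in all 13 fits that leave out 1 library.

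The KO libraries stood apart in their spike-in share, and no label gives a reason. Synthetic spike-in RNA took 2.70, 2.52 and 3.06% of reads in KO 6, KO 13 and KO 15, against 0.153, 0.233 and 0.149% in WT 2, WT 5 and WT 12. In CMP libraries with the KO numbers 6, 13 and 15 it took 0.141, 0.302 and 0.388%, against 0.230, 0.0958 and 0.105% in CMP WT 2, WT 5 and WT 12. The length index, the log2 level of transcripts over 5000 bases relative to those under 1500 bases, was -1.35, 0.17 and -1.45 in KO and 0.85, -0.35 and -0.29 in WT, and ran from -1.73 to 2.53 in HET libraries, so that KO 6 and KO 15 lay below all WT but not below all HET libraries. Among tested genes the median log2 fold change of KO against WT was 0.57 for transcripts under 1500 bases (2407 genes) and -0.34 for those over 5000 bases (2480 genes), beside 0.00 for all genes. Of the 20 genes that fell, 7 had transcripts under 1500 bases (S100a8, S100a9, Camp, Ear1, Ear2, Ear-ps9 and Ly6c1), which lay against that drift. Another 5 had transcripts over 5000 bases (App, Cep83os, Mgam, C3 and 4930523C07Rik), which went with it, and 8 lay between. Genes also dropped out more often in KO 6 and KO 15. Of 1933 genes with a WT mean of 10 to 20 CPM (read count scaled to the TMM-normalised library size), 12.5% were under 1 CPM in KO 6, 1.35% in KO 13 and 20.8% in KO 15. In all 3 KO libraries 7 were under 1 CPM, and these include Camp, Hpse, Btla and Ear-ps9, which passed. In the other direction, 14 of 1864 genes with a KO mean of 10 to 20 CPM were under 1 CPM in all 3 WT libraries. Of 902 genes at 200 CPM or more in WT, 1 was over 20-fold lower in the KO mean, and it was S100a8. Reads in genes ran from 2268883 to 5844188 in KO, from 1006090 to 6300070 in WT and from 1194444 to 4831491 in HET libraries. HET 8 stood apart from all others, with 27233 genes with reads and rank correlations of 0.0347 to 0.307 with the other GMP libraries, which correlated among themselves at 0.699 or more. The titles also carry a series number: M32 holds KO 6 with WT 2 and WT 5, M33 holds WT 12, and M34 holds KO 13 and KO 15, so genotype and series cannot be told apart outside M32. Within M32 no gene passed (2195 at an unadjusted p under 0.05), and KO 6 can be read against WT 2 and WT 5 in each set of values. With spike-in share as a covariate 1696 genes passed, or none without HET 8 (1775 at an unadjusted p under 0.05; chosen after seeing the data), and genotype and spike-in share cannot be told apart in these libraries.

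**Figure D1:**
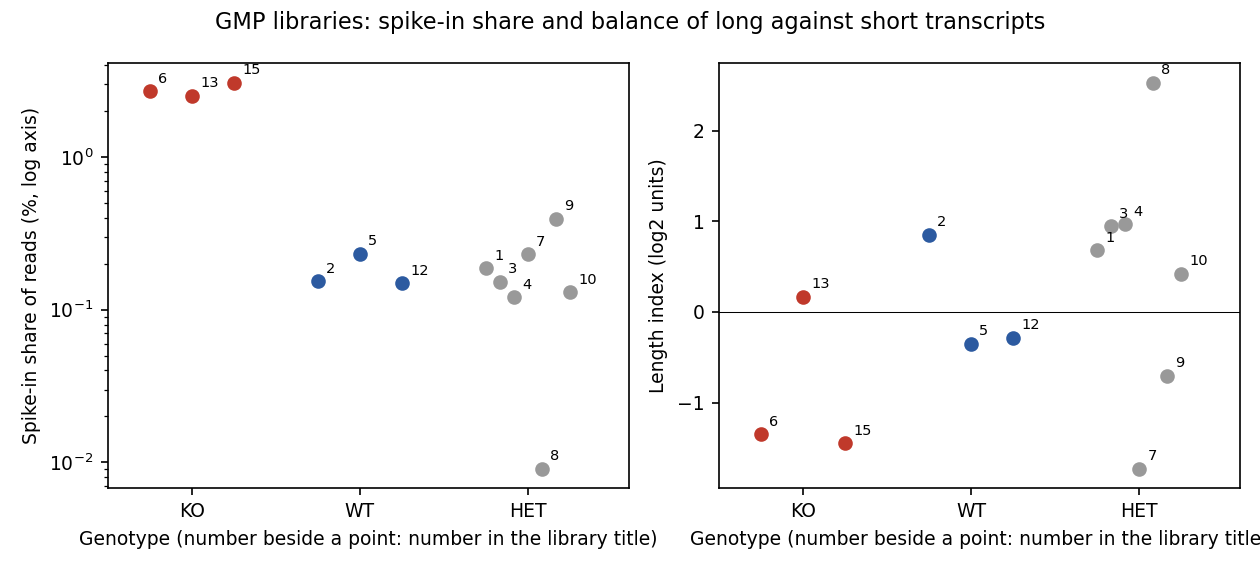
Spike-in share of reads (left, percent, log axis) and length index (right, log2 units) of each GMP library by genotype, with the number in the library title beside each point. The 3 KO libraries lie at 2.52% spike-in reads or more and all others at 0.394% or less, while in the length index KO 13 lies among the WT libraries.

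Smarcd2 itself (ENSMUSG00000078619; chr11:106263179-106272972, minus strand of GRCm38) bore out the genotype labels. It stood at 0, 1.06 and 0.752 CPM in KO 6, KO 13 and KO 15, against 84.8, 90.6 and 88.1 CPM in WT 2, WT 5 and WT 12. In the 7 HET libraries the lowest, median and highest levels were 8.77, 48.0 and 79.4 CPM, and without HET 8 they were 29.7, 50.9 and 79.4 CPM. The log2 fold change of KO against WT was -7.22 ± 0.88 (SE; edgeR adjusted p = 0.00154). None of the 8 tested neighbours of Smarcd2 on the chromosome passed. Ccdc47, the one with all KO libraries below all WT libraries, stood at 52.97, 78.2 and 84.2 CPM in KO, against 103, 99.6 and 108 CPM in WT. The surface antigens of the gate were measured in both genotypes. Kit stood at 47.2, 117 and 26.1 CPM in KO, against 169, 61.4 and 75.9 CPM in WT, Cd34 at 480.4, 641 and 619.8 CPM in KO, against 247, 523 and 610.0 CPM in WT, and Fcgr3, which encodes CD16, at 738, 511 and 657 CPM in KO, against 421, 1173 and 1265 CPM in WT. KO and WT overlapped in each, the log2 fold change of Cd34 was 0.33, or -2.38 and past the threshold with spike-in share as a covariate, and of 9 tested sorting antigen genes 1 fell, Ly6c1. The gate labels name CD177 where the staining lists CD117, the product of Kit; Cd177 had 0 reads in KO and 1 read in WT libraries.

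The promoters of 6 genes that fell to near 0 in KO are printed with matches to 3 motifs in capitals, as motifs of factors that act in myeloid cells and the core promoter. The motifs were the C/EBP core TTGCNNAA, the PU.1 core GAGGAAGT and the TATA box TATAAA, each read on both strands in the 250 bases before the start. No 2 matches overlapped in the sequences shown. They come from RefSeq (GRCm38.p6), are written 5′ to 3′ on the gene's strand and end at the base before the annotated start. S100a8 and S100a9 are shown as the pair of genes that encode calprotectin, Ly6c2 as the gene that passed, like Smarcd2, in every fit that leaves out 1 library, Ear1 and Ear2 as near-identical copies, and C3 as a further gene with the C/EBP core close to the start.
S100a8, chr3:90668821-90669070, plus strand: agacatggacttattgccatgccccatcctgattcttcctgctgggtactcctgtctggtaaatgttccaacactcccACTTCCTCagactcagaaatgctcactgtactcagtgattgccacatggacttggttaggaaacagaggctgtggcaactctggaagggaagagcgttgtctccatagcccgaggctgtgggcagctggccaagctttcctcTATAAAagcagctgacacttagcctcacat
S100a9, chr3:90695722-90695971, minus strand: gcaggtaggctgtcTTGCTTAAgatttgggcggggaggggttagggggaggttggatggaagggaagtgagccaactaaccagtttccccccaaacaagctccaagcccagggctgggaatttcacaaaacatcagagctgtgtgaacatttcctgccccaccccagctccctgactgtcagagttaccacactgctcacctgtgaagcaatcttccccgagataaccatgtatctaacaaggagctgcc
Ly6c2, chr15:75111972-75112121, minus strand: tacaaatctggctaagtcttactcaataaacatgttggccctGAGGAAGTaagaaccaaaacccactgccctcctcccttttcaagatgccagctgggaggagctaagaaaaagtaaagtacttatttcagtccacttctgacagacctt
Ear1, chr14:43819640-43819789, minus strand: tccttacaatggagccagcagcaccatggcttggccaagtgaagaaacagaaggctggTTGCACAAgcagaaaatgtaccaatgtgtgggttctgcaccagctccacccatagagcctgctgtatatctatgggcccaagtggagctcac
Ear2, chr14:44102504-44102653, plus strand: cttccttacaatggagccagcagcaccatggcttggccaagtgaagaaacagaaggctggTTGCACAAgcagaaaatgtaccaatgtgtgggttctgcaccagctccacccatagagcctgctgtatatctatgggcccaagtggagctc
C3, chr17:57228137-57228286, minus strand: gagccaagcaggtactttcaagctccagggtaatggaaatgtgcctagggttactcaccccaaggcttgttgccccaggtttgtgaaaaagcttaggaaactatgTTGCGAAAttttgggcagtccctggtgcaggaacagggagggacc
In S100a8 the PU.1 core began 172 bases and the TATA box 30 bases before the start. The C/EBP core began 236 bases before the start in S100a9, 92 in Ear1, 90 in Ear2 and 45 in C3, and the PU.1 core 108 bases before it in Ly6c2. Promoters were matched by symbol for 15 of the 19 named genes that fell and for 2 of the 5 that rose. The C/EBP core was found in 5 of the 15 (S100a9, Ear1, Ear2, C3 and Smarcd2), against 9.56% of all 32851 promoters, and in neither of the 2. The PU.1 core was found in 4 of the 15, against 2.44% of all promoters, and the TATA box in 4 of the 15, against 12.37%. Smarcd2, the gene mutated in KO, is counted for the C/EBP core and the TATA box, and its low level marks the genotype. The PU.1 core was in S100a8, Btla, Ly6c1 and Ly6c2. Each promoter printed holds a match, while those of Camp, Hpse, Cep83os, App and Ass1, which also fell, held no match to any motif. Ear1 and Ear2 are near-identical copies, as are Ly6c1 and Ly6c2, so neither pair gives 2 independent matches. Ly6c1, Ly6c2 and Cdkn1a were read at 2 starts each, of which the most upstream is printed for Ly6c2. The motifs were chosen with the results known, so these shares are a description.

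S100a8 and S100a9 encode the 2 subunits of calprotectin, the abundant metal-binding protein of neutrophil cytosol. S100a8 stood at 0.198, 4.95 and 0.752 CPM in KO 6, KO 13 and KO 15, against 1071, 484 and 494 CPM in WT 2, WT 5 and WT 12. In HET libraries the lowest, median and highest levels were 23.4, 370.1 and 525 CPM, or 279, 399 and 525 CPM without HET 8. The highest KO library lay below the lowest HET library. The log2 fold change was -8.54 ± 1.26 (adjusted p = 0.00787; 11 of 13 fits that leave out 1 library kept the call). S100a9 stood at 0.395, 1.77 and 0 CPM in KO, against 206, 75.3 and 63.4 CPM in WT, a log2 fold change of -7.49 ± 1.06 (adjusted p = 0.00711; 12 of 13 fits kept the call). These are bulk libraries, in which fewer cells of a type and less RNA per cell cannot be told apart.

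Camp encodes cathelicidin, an antimicrobial peptide precursor of the secondary granule. It had no read in any KO library, against 17.8, 13.5 and 15.04 CPM and 178 reads in WT 2, WT 5 and WT 12. With 3 reads over the group as the floor, Camp was at least 65.1-fold lower in KO (adjusted p = 0.0200), and HET levels were 1.33, 5.20 and 16.9 CPM (lowest, median and highest). Of 14 tested genes in the secondary and tertiary granule list, 3 fell (S100a8, S100a9 and Camp) and none rose. The list counts S100a8 and S100a9, whose protein is cytosolic, and Camp was the only other member that passed. The median log2 fold change was -3.14 beside 0.00 over all genes, a median that the genes without KO reads do not set. In 9 of the 14 all KO libraries lay below all WT libraries, as did 1023 (8.36%) of all genes tested. The 9 include 6 that did not pass. Wfdc21, a WAP domain gene, had no reads in KO and 5.65, 5.64 and 3.87 CPM in WT (adjusted p = 0.150), at least 20.49-fold lower on the same floor. Fcnb, which encodes ficolin B, stood at 0, 22.63 and 7.89 CPM in KO, against 67.8, 201 and 205 CPM in WT (adjusted p = 0.272). Olfm4, which encodes olfactomedin 4 of a neutrophil subset's granules, stood at 9.88, 17.3 and 21.23 CPM in KO, against 56.5, 85.4 and 89.9 CPM in WT (adjusted p = 0.152). Fcnb, Olfm4 and the next genes named from this list were chosen after their values were seen. Lcn2, which encodes the siderophore-binding lipocalin, stood at 0, 0.707 and 0.188 CPM in KO, against 4.04, 5.15 and 4.32 CPM in WT, and Ngp, a cathelicidin-related granule protein gene, at 0, 0 and 1.13 CPM in KO, against 3.23, 22.1 and 1.79 CPM in WT. Hp (haptoglobin), the remaining gene of the 9, was at 91.3, 145 and 138 CPM in KO, against 203, 232 and 183 CPM in WT. Ltf, Mmp8, Ltb4r1, Pglyrp1 and Anxa1 overlapped between genotypes.

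Primary granule genes differed among themselves. None of the 13 tested passed. In 5 of them all KO libraries lay below all WT libraries and in 1 above, beside 8.36% and 5.83% of all genes, and the median log2 fold change was -0.38. Ctsg, the serine protease cathepsin G, stood at 132, 162 and 325 CPM in KO, against 1802, 2619.9 and 2361 CPM in WT, a log2 fold change of -3.45 ± 0.94 (adjusted p = 0.272). Elane, neutrophil elastase, stood at 133, 156 and 219 CPM in KO, against 1134, 3744 and 3583 CPM in WT (-4.06 ± 1.30; adjusted p = 0.449). The groups do not overlap for either protease. In HET libraries Elane ran from 29.2 to 7815 CPM, or from 817 to 7815 CPM without HET 8, which lies above all KO libraries. Prss57, a further serine protease, stood at 41.7, 28.6 and 43.2 CPM in KO, against 101, 111 and 125 CPM in WT (adjusted p = 0.683), and Nkg7, a granule membrane protein gene, at 116, 44.9 and 137 CPM in KO, against 145, 479.8 and 475 CPM in WT (adjusted p = 0.797). Mpo, which encodes myeloperoxidase and was chosen after its values were seen, stood at 13038, 11296 and 20539 CPM in KO, against 7462, 22515 and 25520.0 CPM in WT and overlapped between genotypes. Lyz2 (lysozyme), likewise chosen, was the gene with KO above WT, at 1251, 1416 and 3568 CPM in KO, against 252, 966 and 969.5 CPM in WT (adjusted p = 0.808), and its log2 fold change was 1.51, or -2.78 with spike-in share as a covariate.

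**Figure D2:**
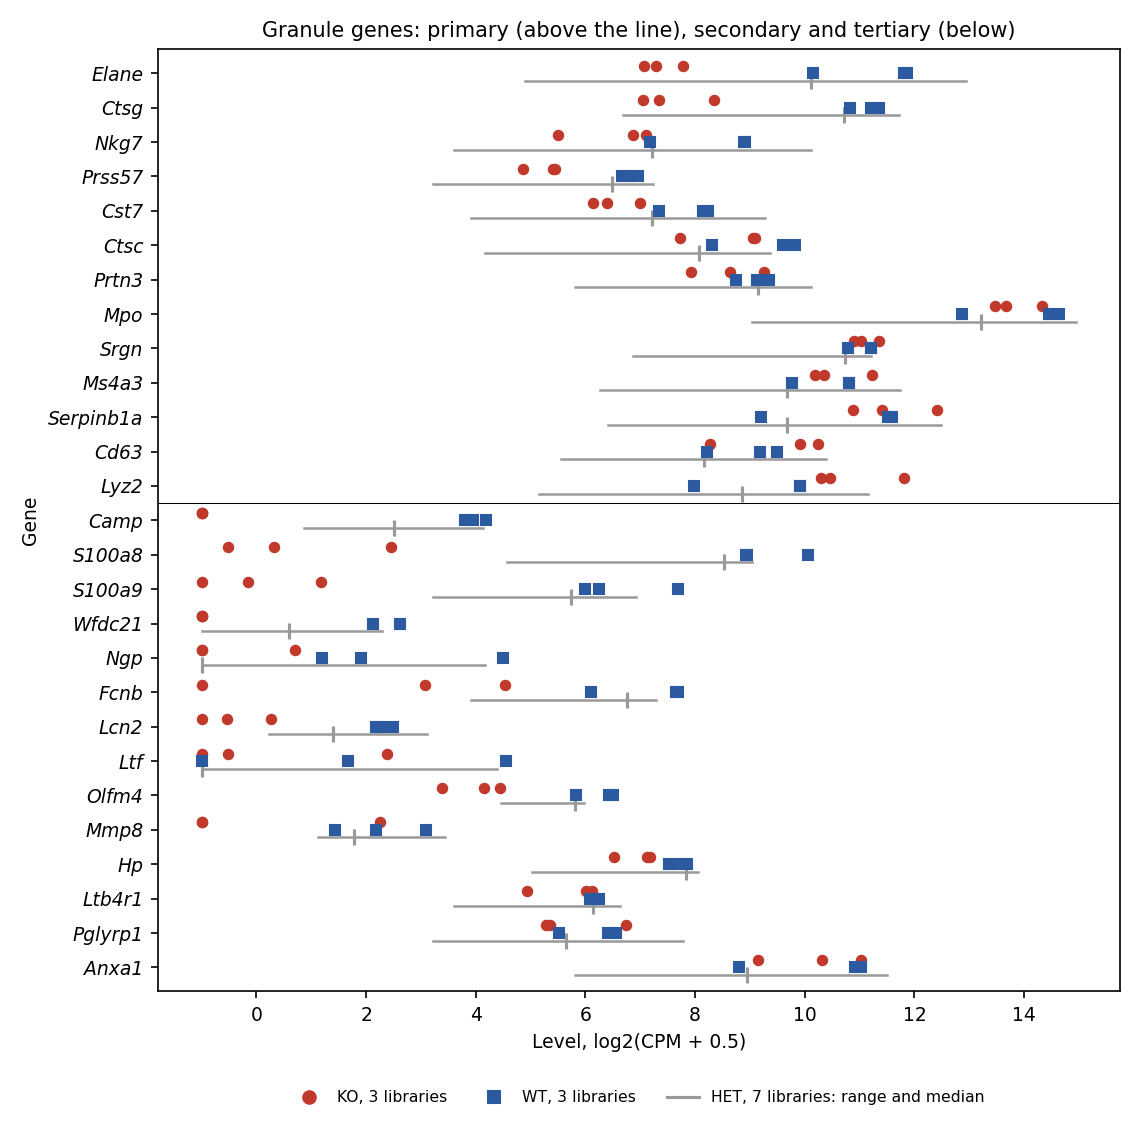
Level of the tested granule genes, as log2(CPM + 0.5), in the 3 KO libraries (red circles), the 3 WT libraries (blue squares) and the 7 HET libraries (grey line from lowest to highest, with the median). Primary granule genes are above the line and ordered by log2 fold change, with Mpo overlapping between genotypes. Camp, S100a8 and S100a9 lead the secondary and tertiary list below it, in which S100a8 and S100a9 encode a cytosolic protein.

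**Figure D3:**
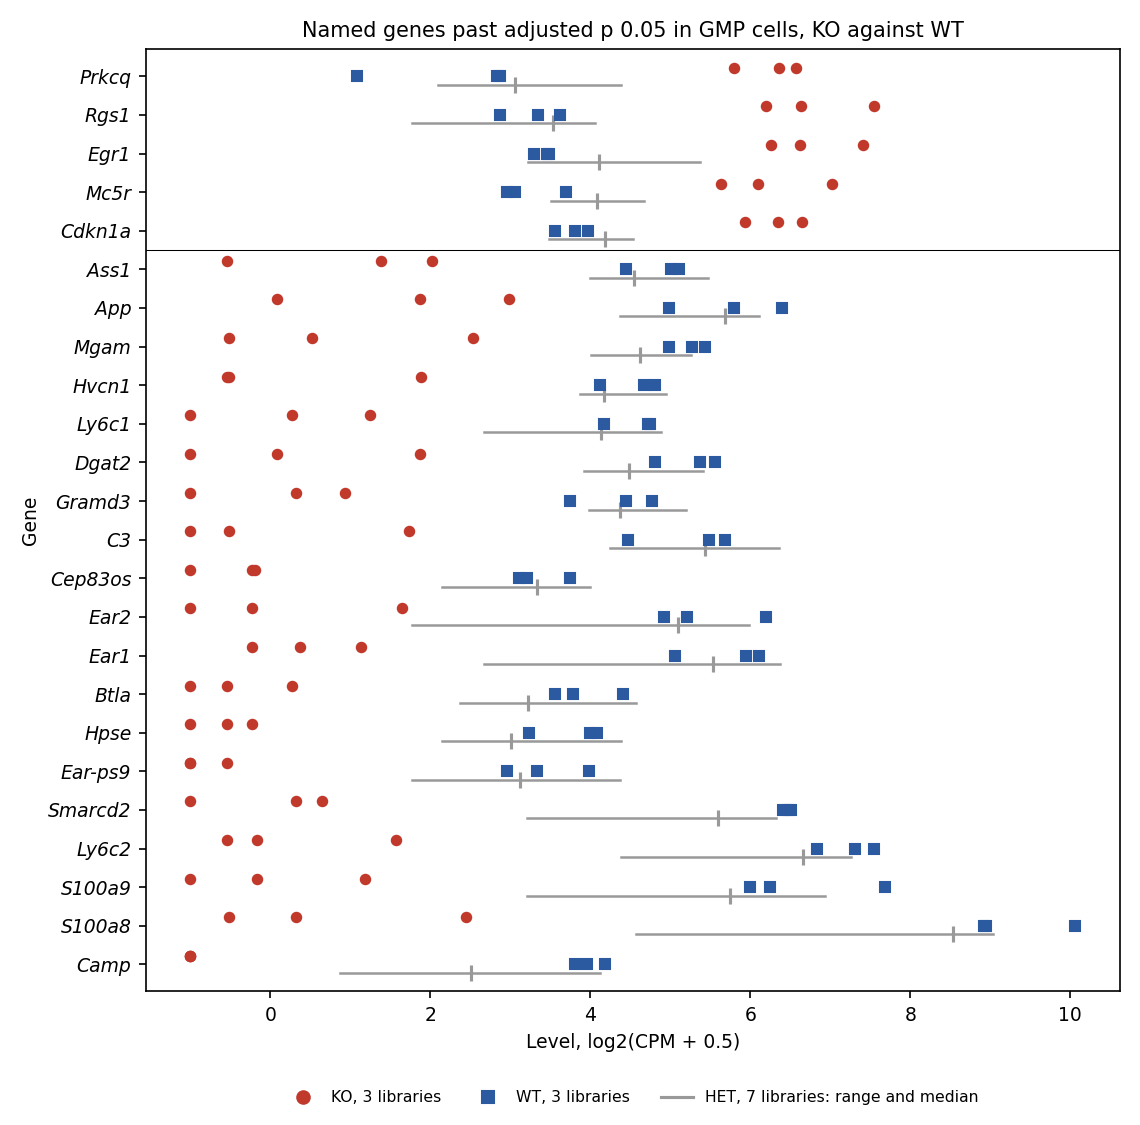
Level of the 24 named genes that passed, as log2(CPM + 0.5), with KO as red circles, WT as blue squares and the HET range and median in grey; the 5 genes that rose are above the line. For each of the 24 the 3 KO libraries lie outside the range of the 3 WT libraries.

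Ly6c2 and Ly6c1 encode the surface antigen by which mouse monocytes are sorted. In this and the following paragraphs a value with ± in brackets is the log2 fold change of KO against WT with its SE. Ly6c2 stood at 0.395, 2.48 and 0.188 CPM in KO, against 186, 159 and 113 CPM in WT, with 20.46, 101 and 153 CPM as the lowest, median and highest HET levels. Its log2 fold change was -7.38 ± 0.91 (adjusted p = 0.00154). Ly6c1 stood at 0, 0.707 and 1.88 CPM in KO, against 25.8, 26.3 and 17.6 CPM in WT (-4.66 ± 0.90; adjusted p = 0.0374). The transcripts are 97.7% identical over 605 aligned bases, so reads may have been split between them and the 2 results are not separate. Of 15 tested monocyte genes these 2 fell and none rose. In 4 of the 15 all KO libraries lay below all WT libraries and in 1 above, beside 8.36% and 5.83% of all genes. F13a1, the coagulation factor XIII subunit made by monocytes, stood at 30.4, 87.0 and 60.1 CPM in KO, against 522, 271 and 272 CPM in WT (adjusted p = 0.462), and Ly86, which encodes a partner of a Toll-like receptor homologue, at 0, 1.06 and 0.752 CPM in KO, against 20.99, 14.7 and 5.81 CPM in WT (adjusted p = 0.191). Irf8, the transcription factor that directs progenitors to the monocyte fate, stood at 5.53, 21.9 and 18.8 CPM in KO, against 50.1, 109 and 72.0 CPM in WT, a log2 fold change of -2.33 ± 0.53 that did not pass (adjusted p = 0.143). Adgre1, which encodes the macrophage antigen F4/80, lay the other way at 53.4, 133 and 117 CPM in KO, against 25.8, 32.1 and 49.3 CPM in WT (adjusted p = 0.554). Of 12 tested fetal liver macrophage genes it was the only 1 with all KO libraries above all WT libraries. In 2 of the 12, Axl and Slc40a1, all KO libraries lay below. The median log2 fold change of that list was -1.12, and none of its genes passed.

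Among 22 tested myeloid receptor genes none passed, and in 5 all KO libraries lay below all WT libraries, beside 8.36% of all genes. Clec5a, a C-type lectin receptor of myeloid cells, came closest, at 15.02, 62.9 and 15.6 CPM in KO, against 255, 520.3 and 550.3 CPM in WT (-3.83 ± 0.83; adjusted p = 0.102). Clec12a, an inhibitory lectin receptor, stood at 117, 176 and 178 CPM in KO, against 388, 698 and 732 CPM in WT (adjusted p = 0.697). Of 6 genes of the NADPH oxidase, which makes superoxide in phagocytes, none passed; Cybb, its catalytic subunit, stood at 1.78, 8.49 and 50.9 CPM in KO, against 84.0, 106 and 82.3 CPM in WT (adjusted p = 0.678). Of 16 tested myeloid transcription factors none passed. Cebpe, the C/EBP factor of secondary granule genes, was chosen after its values were seen and stood at 104, 51.6 and 173 CPM in KO, against 58.1, 56.2 and 48.2 CPM in WT, so that KO 6 and KO 15 lay above all WT libraries and KO 13 among them. Spi1, which encodes PU.1 and was likewise chosen, was above WT in all KO libraries at 235, 231 and 374 CPM in KO, against 103, 164 and 139 CPM in WT (adjusted p = 0.797). Id1, an inhibitor of basic helix-loop-helix factors, was above WT in all KO libraries at 61.3, 56.2 and 101 CPM in KO, against 12.1, 31.7 and 23.97 CPM in WT (adjusted p = 0.449). With spike-in share as a covariate the log2 fold changes of Cebpe and Spi1 turned to -2.60 and -0.47, and that of Id1 to -0.60 when HET 8 was also left out. In the list, 2 genes lay above in all KO libraries (Spi1 and Id1) and 1 below (Irf8), beside 5.83% and 8.36% of all genes.

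Eosinophil genes split by gene. Ear1 stood at 0.791, 0.354 and 1.69 CPM in KO, against 68.6, 61.1 and 32.9 CPM in WT (-5.71 ± 0.85; adjusted p = 0.00787), and Ear2 at 0, 0.354 and 2.63 CPM in KO, against 72.7, 36.6 and 29.9 CPM in WT (-5.40 ± 1.02; adjusted p = 0.0331). The pseudogene Ear-ps9 had 1 read over the 3 KO libraries and 107 over the 3 WT libraries, a pooled log2 ratio of reads of -6.88 (-12.19 to -4.37), where the interval covers counting error only (adjusted p = 0.0200). Ear1 and Ear2 transcripts are 96.8% identical over 710 bases, and Ear-ps9 is 98.5% identical to Ear1 over 460, so these 3 results may rest on shared reads. Prg3, an eosinophil granule protein gene, lay the other way at 1241, 487 and 1334 CPM in KO, against 73.5, 210.3 and 163 CPM in WT (2.78 ± 1.06; adjusted p = 0.654). Prg2, which encodes major basic protein, stood at 7789, 1302 and 15882 CPM in KO, against 579, 1384 and 1128 CPM in WT with KO 13 among the WT libraries (adjusted p = 0.784). The lowest, median and highest HET levels were 14.6, 84.6 and 611 CPM for Prg3 and 108, 542 and 9254 CPM for Prg2. The highest HET library thus lay above KO 13 for Prg3 and above KO 6 and KO 13 for Prg2. In all, 2 of 9 tested eosinophil genes fell (Ear1 and Ear2) and none rose, beside 0.163% and 0.0409% of all genes. In 2 of the 9 all KO libraries lay above all WT libraries and in 2 below, beside 5.83% and 8.36% of all genes. The median log2 fold change was 0.56. Summed over the 10 listed genes, the level was 9299, 1993.5 and 17684 CPM in KO, against 1099, 1957 and 1588 CPM in WT. Over HET libraries it was 219 to 10329 CPM.

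Basophil and mast cell genes were likewise mixed. None of 9 tested passed, and the median log2 fold change was 2.09. In 4 of the 9 all KO libraries lay above all WT libraries and in 2 below, beside 5.83% and 8.36% of all genes. Cpa3, mast cell carboxypeptidase, stood at 2291, 1268 and 1505 CPM in KO, against 137, 273 and 266 CPM in WT (2.90 ± 0.87; adjusted p = 0.362). Gata2, a transcription factor of stem cells, mast cells and basophils, stood at 229, 97.3 and 97.9 CPM in KO, against 37.1, 31.7 and 31.3 CPM in WT (2.09 ± 0.51; adjusted p = 0.180), and Il1rl1, the interleukin-33 receptor gene, at 64.8, 46.3 and 46.98 CPM in KO, against 11.3, 8.34 and 8.93 CPM in WT (2.48 ± 0.68; adjusted p = 0.277). Mcpt8, a basophil protease gene, lay the other way at 2.96, 0 and 0 CPM in KO, against 3.23, 29.4 and 18.2 CPM in WT (adjusted p = 0.459). Summed over the 12 listed genes, the level was 3820, 2408 and 2863 CPM in KO, against 532, 1013 and 934 CPM in WT, and 287 to 1472 CPM over HET libraries. With spike-in share as a covariate the log2 fold changes of Prg2, Prg3 and Cpa3 turned to -1.45, -1.38 and -0.44. The part of cell content in these results was not tested.

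Several genes outside these lists fell. Hpse, which encodes the heparan sulphate-cleaving enzyme heparanase, had 0, 0.354 and 0.188 CPM in KO and 8.88, 15.5 and 16.5 CPM in WT, with 2 reads over KO and 185 over WT and a pooled log2 ratio of -6.67 (-9.72 to -4.79) (adjusted p = 0.0200). Hvcn1, a proton channel gene of phagocytes and B cells, stood at 0.198, 3.18 and 0.188 CPM in KO, against 16.95, 27.5 and 25.0 CPM in WT (-4.43 ± 0.88; adjusted p = 0.0463). C3, complement component 3, stood at 0.198, 0 and 2.82 CPM in KO, against 50.9, 44.2 and 21.7 CPM in WT (-5.10 ± 0.92; adjusted p = 0.0268). The 3 KO libraries were the lowest of the 6 for each of these genes. Metabolic genes that fell were Dgat2, which completes triglyceride synthesis, at 3.16, 0 and 0.564 CPM in KO, against 27.5, 40.7 and 46.7 CPM in WT (-4.83 ± 0.87; adjusted p = 0.0268), and Mgam, a maltase-glucoamylase, at 0.198, 5.30 and 0.940 CPM in KO, against 42.8, 38.04 and 31.1 CPM in WT (-4.21 ± 0.81; adjusted p = 0.0374). Ass1, argininosuccinate synthase of arginine synthesis, stood at 3.56, 2.12 and 0.188 CPM in KO, against 33.9, 31.7 and 21.29 CPM in WT (-3.87 ± 0.75; adjusted p = 0.0383). Btla, an inhibitory receptor of the immunoglobulin family, stood at 0, 0.707 and 0.188 CPM in KO, against 11.3, 13.3 and 20.7 CPM in WT (3 reads over KO and 207 over WT; pooled log2 ratio -6.24 (-8.53 to -4.68); adjusted p = 0.0285). App, the amyloid precursor protein gene, stood at 3.16, 7.43 and 0.564 CPM in KO, against 84.0, 55.2 and 31.3 CPM in WT (-3.97 ± 0.74; adjusted p = 0.0309), and Gramd3 at 0, 1.41 and 0.752 CPM in KO, against 12.9, 21.35 and 26.8 CPM in WT (-4.88 ± 0.84; adjusted p = 0.0200). Cep83os, annotated on the strand opposite Cep83, stood at 0, 0.354 and 0.376 CPM in KO, against 12.9, 8.10 and 8.78 CPM in WT (3 reads over KO and 108 over WT; pooled log2 ratio -5.30 (-7.60 to -3.72); adjusted p = 0.0463), and since reads carried no strand its reads and those of Cep83 may be mixed. The last of the 20 is a gene known only by its RIKEN clone name, 4930523C07Rik, at 5.34, 5.66 and 5.64 CPM in KO, against 28.3, 34.1 and 37.8 CPM in WT (-2.59 ± 0.47; adjusted p = 0.0282). Of the 13 fits that leave out 1 library, Hvcn1, Mgam and App passed in 2, Ass1, Cep83os and 4930523C07Rik in 3, and Btla, Ear2 and Ly6c1 in 4. Hpse, Gramd3 and Camp passed in 8, and Dgat2, C3 and Ear-ps9 in 9.

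The 5 genes that rose encode signalling proteins, a transcription factor and a cell cycle inhibitor. Egr1, an immediate early transcription factor, stood at 75.9, 97.96 and 169 CPM in KO, against 10.5, 9.33 and 10.7 CPM in WT (3.49 ± 0.60; adjusted p = 0.0200), with 8.81, 16.8 and 40.9 CPM as the lowest, median and highest HET levels. Rgs1, which switches off signalling by G-protein-coupled receptors, stood at 186, 98.7 and 72.7 CPM in KO, against 9.69, 11.8 and 6.85 CPM in WT (3.66 ± 0.57; adjusted p = 0.0108). Prkcq, protein kinase C theta, stood at 55.1, 94.8 and 81.9 CPM in KO, against 1.61, 6.63 and 6.85 CPM in WT (3.85 ± 0.66; adjusted p = 0.0200), and Mc5r, a melanocortin receptor gene, at 68.2, 49.2 and 129 CPM in KO, against 7.27, 7.85 and 12.5 CPM in WT (3.13 ± 0.55; adjusted p = 0.0200). Cdkn1a, the cell cycle inhibitor p21 and a target of p53, stood at 81.2, 99.7 and 60.7 CPM in KO, against 11.3, 15.2 and 13.5 CPM in WT (2.58 ± 0.48; adjusted p = 0.0285), with 10.7, 17.7 and 22.7 CPM in HET. The lowest KO library lay above the highest WT and the highest HET library for each of the 5. None of them passed without WT 2, WT 5 or WT 12, where no gene rose, and of the 13 such fits Cdkn1a passed in 6, Mc5r in 8, Egr1 and Rgs1 in 9 and Prkcq in 10.

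Immediate early genes, which cells transcribe within minutes of many stimuli, were tested as a list of 17. Of these, 1 rose (Egr1) and none fell, in 12 all KO libraries lay above all WT libraries, beside 713 (5.83%) of all genes tested, and the median log2 fold change was 1.57. Fos, a subunit of AP-1, stood at 369.8, 360.0 and 453 CPM in KO, against 54.1, 108 and 85.7 CPM in WT (2.25 ± 0.61; adjusted p = 0.272), Ier2 at 245, 128 and 368 CPM in KO, against 35.5, 75.6 and 69.7 CPM in WT (adjusted p = 0.504) and Ier5 at 27.3, 12.7 and 35.3 CPM in KO, against 3.23, 4.91 and 3.72 CPM in WT (adjusted p = 0.272). With spike-in share as a covariate the log2 fold change of Ier2 turned to -0.20. Of 19 tested targets of p53, Cdkn1a was the 1 that rose and none fell. In 2 of the 19 all KO libraries lay above all WT libraries and in 1 below, beside 5.83% and 8.36% of all genes. Plk2, the other of the 2, stood at 10.1, 2.12 and 17.7 CPM in KO, against 1.61, 1.23 and 0.447 CPM in WT (adjusted p = 0.685). Sesn2, a stress-response gene, was the 1 below, at 0, 0 and 0.564 CPM in KO, against 5.65, 1.96 and 2.83 CPM in WT (adjusted p = 0.786; 1.07 with spike-in share as a covariate), and Zmat3, an RNA-binding protein gene, overlapped at 0, 2.12 and 18.2 CPM in KO, against 0.807, 0.245 and 1.04 CPM in WT (adjusted p = 0.797; log2 fold change 3.23, or -3.19 with the title series as a block).

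Of 25 tested genes of endoplasmic reticulum folding, degradation and stress none passed. In 12 of them all KO libraries lay below all WT libraries and in none above, beside 8.36% and 5.83% of all genes. The median log2 fold change was -0.74. Sel1l, part of the complex that retrieves misfolded proteins, stood at 49.6, 67.2 and 39.8 CPM in KO, against 128, 121 and 146 CPM in WT (-1.33 ± 0.47; adjusted p = 0.554), and Syvn1, the ubiquitin ligase of that complex, at 14.4, 21.22 and 19.9 CPM in KO, against 35.5, 42.5 and 45.4 CPM in WT (-1.15 ± 0.46; adjusted p = 0.693). Hyou1, a chaperone gene, stood at 11.3, 15.6 and 2.25 CPM in KO, against 203, 15.95 and 16.97 CPM in WT (adjusted p = 0.762). Among the WT libraries WT 2 alone was far higher, and the lowest, median and highest HET levels were 0.982, 76.0 and 173 CPM. Atf3, a stress-induced transcription factor gene, lay the other way in KO 6 and KO 15, at 5.93, 0 and 28.4 CPM in KO, against 0, 0.245 and 0.298 CPM in WT (adjusted p = 0.685). Among 33 DNA replication genes none passed and the median was -0.15. Ccne2, a cyclin of the G1/S transition, stood at 4.15, 41.7 and 8.08 CPM in KO, against 70.2, 67.98 and 99.0 CPM in WT (adjusted p = 0.554). Of 24 other BAF subunit genes tested none passed, with a median of 0.06; Smarce1, with KO above WT, stood at 138, 71.8 and 105 CPM in KO, against 54.9, 53.5 and 58.8 CPM in WT (adjusted p = 0.797), and its log2 fold change was -0.084 with spike-in share as a covariate. Of 14 tested stem cell genes none passed. In 4 of the 14 all KO libraries lay above all WT libraries and in 1 below, beside 5.83% and 8.36% of all genes. Meis1, a homeobox factor of stem cells, stood at 90.3, 75.7 and 17.1 CPM in KO, against 8.07, 14.2 and 11.8 CPM in WT (2.40 ± 0.63; adjusted p = 0.269), and Hmga2, a chromatin protein of fetal stem cells, at 83, 87.0 and 52.1 CPM in KO, against 41.98, 24.8 and 29.8 CPM in WT (adjusted p = 0.620).

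**Figure D4:**
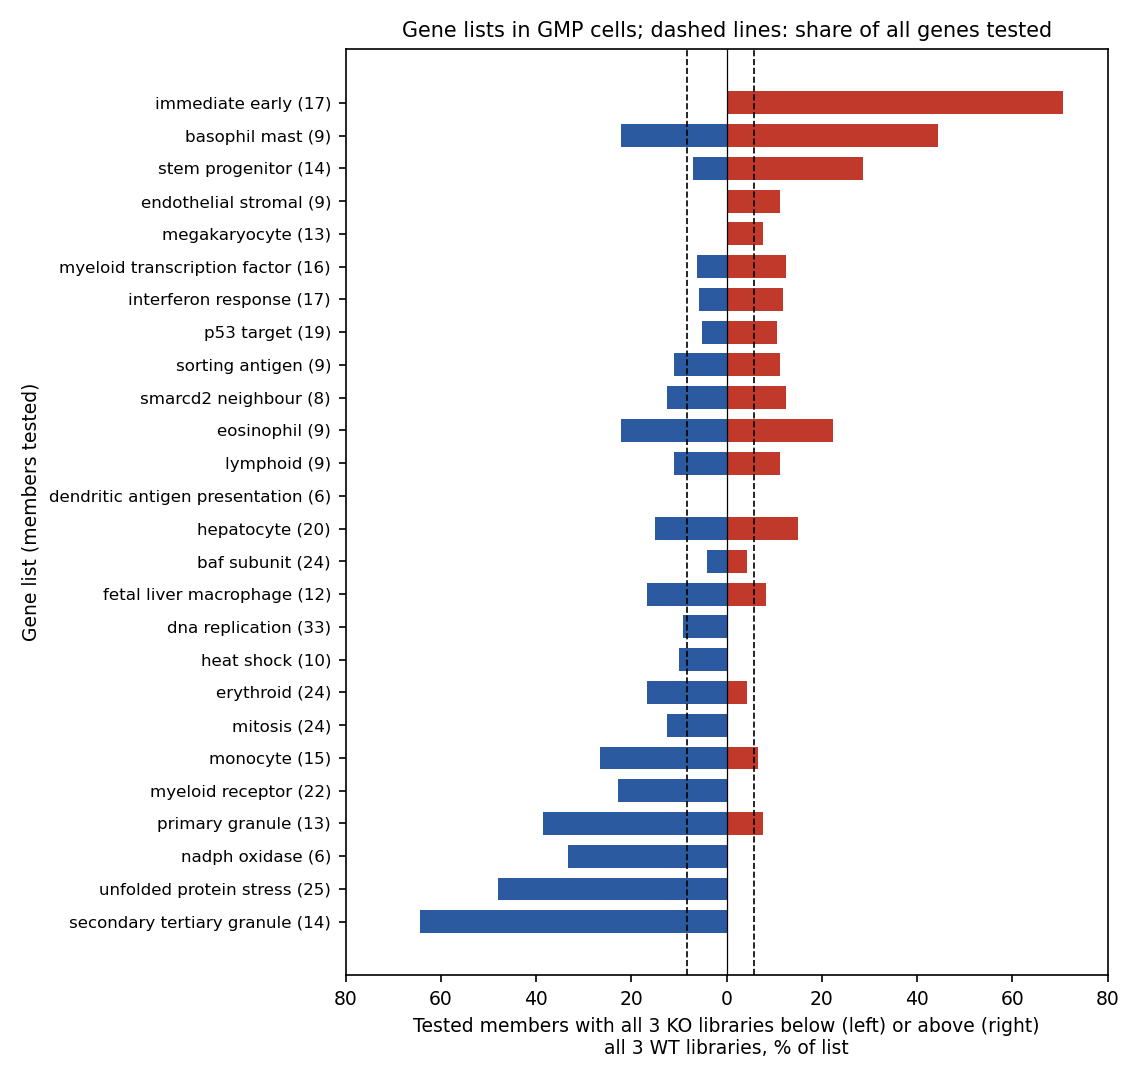
Share of the tested members of each gene list whose 3 KO libraries lay all above (red, right) or all below (blue, left) the 3 WT libraries, in percent, with the number tested in brackets and the share of all 12239 genes as dashed lines (5.83% above, 8.36% below). Immediate early genes reach furthest to the right (12 of 17) and the secondary and tertiary granule list, with S100a8 and S100a9, furthest to the left (9 of 14).

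Among transcripts of fetal hepatocytes, the main other cell type of the liver, Fgb, Apoa1 and Fgg varied between WT libraries. The same genes were near 0 in all KO libraries. Of 20 tested markers none passed, and the median log2 fold change was -3.11. In 3 of the 20 all KO libraries lay above all WT libraries and in 3 below, beside 5.83% and 8.36% of all genes. Fgb, a fibrinogen chain gene, stood at 0, 1.06 and 0.188 CPM in KO, against 2.42, 95.0 and 27.8 CPM in WT, and Apoa1, an apolipoprotein gene, at 0.198, 0 and 0.188 CPM in KO, against 1.61, 65.8 and 20.7 CPM in WT. In HET libraries other than HET 8 the median was 21.62 CPM for Apoa1 and 15.9 CPM for Fgb. Fgg, a further fibrinogen chain, had no reads in KO and 0.807, 53.3 and 8.63 CPM in WT. Over the 21 listed markers summed levels were 1129, 734 and 1280 CPM in KO and 171, 2060 and 879 CPM in WT, and 298 to 1756 CPM in HET, the KO sums being mostly Apoe. WT 2, with the lowest sum of the WT libraries, was the highest of the 3 WT libraries for 12 of the 20 genes that fell, the lowest for 7 and between for 1. The part of hepatocyte RNA in the results was not tested. Summed erythroid markers were 3901, 449 and 558 CPM in KO and 1495, 3740 and 1876 CPM in WT, and none of 24 tested passed.

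The same genes were read in CMP and MEP libraries, which are separate libraries whose titles carry numbers shared with GMP; whether the same fetuses gave both is not stated. In the joint fit of GMP and CMP libraries, 5 of 12585 genes (0.0397%) passed for KO against WT in CMP. All 5 are among the 25 of GMP, with the same sign: Smarcd2, Ly6c2, Hpse, Rgs1 and Cdkn1a. A joint fit shares its filter, scaling and estimate of the spread with the GMP libraries, so these calls are not a separate analysis of CMP. Ly6c2 averaged 1.19 ± 1.03 CPM in KO and 17.4 ± 4.03 CPM in WT in CMP (SD; 4 KO and 3 WT libraries), a log2 fold change of -3.96 ± 0.57 (adjusted p = 0.000726). Cdkn1a averaged 41.8 ± 13.8 CPM in KO and 11 ± 0.372 CPM in WT (1.92 ± 0.33; adjusted p = 0.00896), and Rgs1 89.5 ± 9.19 CPM in KO and 22.19 ± 5.03 CPM in WT (2.02 ± 0.35; adjusted p = 0.00896). Hpse averaged 2.94 ± 0.980 CPM in KO and 17.9 ± 4.17 CPM in WT (-2.60 ± 0.46; adjusted p = 0.0122). These CMP KO libraries had spike-in shares of 0.138 to 0.388% and length indices of -0.28 to 0.40. The CMP WT libraries had spike-in shares of 0.0958 to 0.230% and length indices of -0.12 to 0.20. S100a8 averaged 0.727 ± 1.32 CPM in KO and 15.1 ± 3.001 CPM in WT in CMP and did not pass (-4.65 ± 0.96; adjusted p = 0.0721). Egr1 averaged 91.4 ± 31.1 CPM in KO and 25.1 ± 2.67 CPM in WT in CMP (1.86 ± 0.41; adjusted p = 0.105). All 20 of the 25 genes that could be tested with CMP had the same sign there, and 19 of 21 with MEP. In the joint fit of GMP and MEP libraries only Smarcd2 passed for KO against WT in MEP (1 of 12458 genes, 0.00803%; 518 at an unadjusted p under 0.05). In MEP Rgs1 averaged 19.53 ± 5.54 CPM in KO and 9.03 ± 2.03 CPM in WT, Cdkn1a averaged 10.4 ± 5.59 CPM in KO and 6.37 ± 1.58 CPM in WT, and Egr1 averaged 35.0 ± 11.9 CPM in KO and 17.9 ± 1.15 CPM in WT (SD; 4 KO and 3 WT libraries).

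The difference between the KO effect in GMP and that in another population was tested for every gene. Against CMP, 1 of 12585 genes (0.00795%) passed, Cep83os, whose log2 fold change was -5.20 in GMP and -0.17 ± 0.48 in CMP, a difference of -5.04 ± 0.86 (adjusted p = 0.0319). Against MEP, 5 of 12458 (0.0401%) passed, including Cep83os (-4.83 ± 0.94; adjusted p = 0.0464), Ass1 (-3.73 ± 0.66; adjusted p = 0.0215) and Kpna6, an importin gene (-3.50 ± 0.68; adjusted p = 0.0464). Ass1 averaged 97.1 ± 8.36 CPM in KO and 106 ± 26.5 CPM in WT in MEP. The counts rose to 24 against CMP and 29 against MEP without HET 8 of both populations, and to 453 and 196 without KO 13 of both. They were 0 against either population without WT 2, WT 5 or WT 12, and 0 against either with the replicate number as a block. For S100a8 the difference from CMP was -3.99 ± 1.505 (adjusted p = 0.770), for Ly6c2 -3.48 ± 0.90 (adjusted p = 0.200), for Egr1 1.69 ± 0.58 (adjusted p = 0.645) and for Cdkn1a 0.68 ± 0.45 (adjusted p = 0.912). None of these 4 differences passed, which does not show that the effects are alike.

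**Figure D5:**
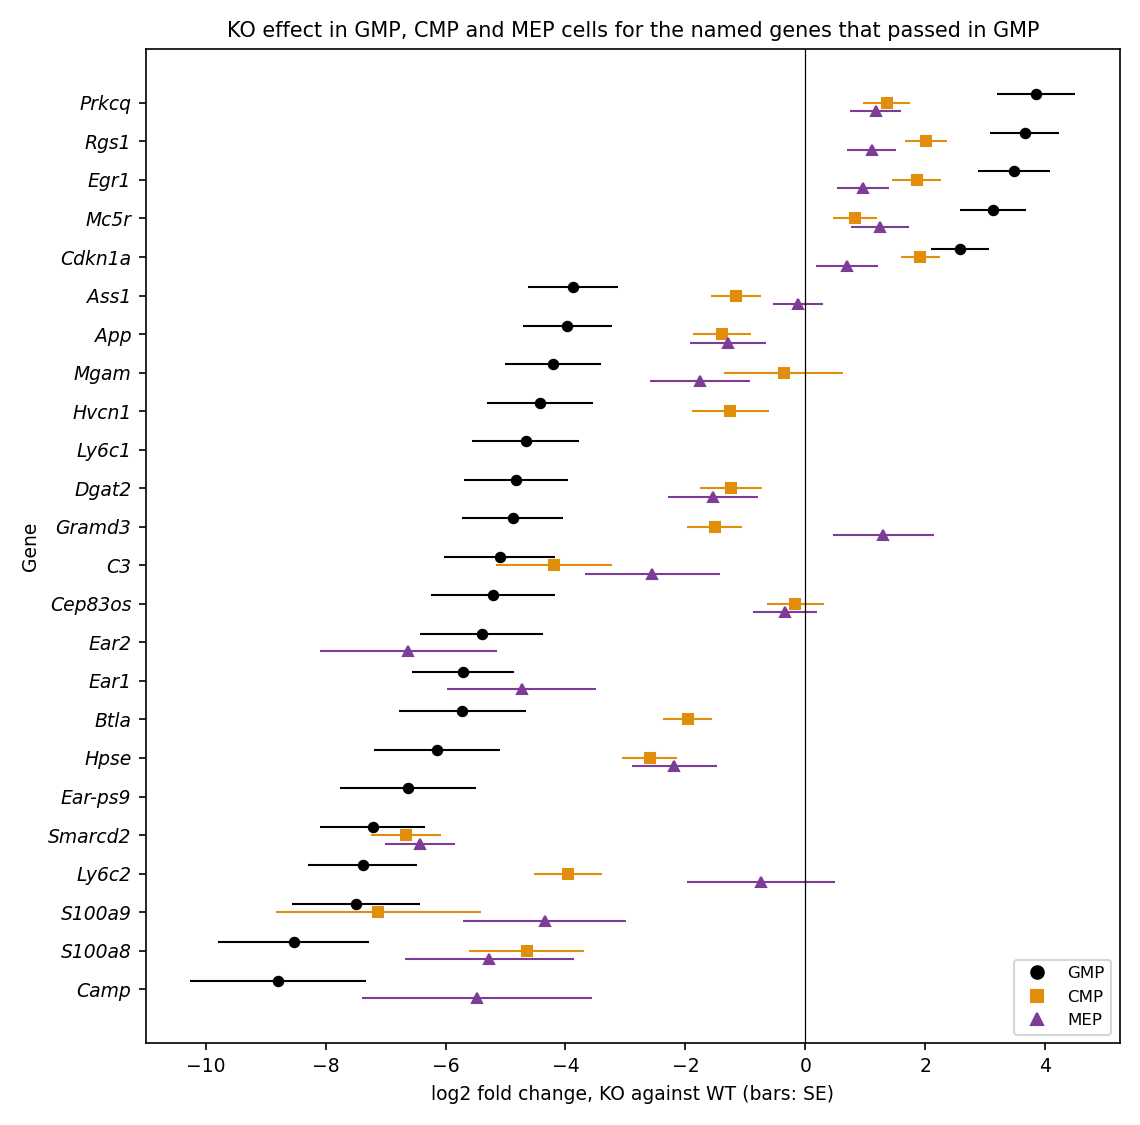
Log2 fold change of KO against WT with its SE for the 24 named genes that passed in GMP (black circles), with the same gene in CMP (orange squares) and MEP (purple triangles) where it could be tested; the GMP value of Camp, which had no reads in KO, depends on the fit's prior count. The 5 genes that rose in GMP lie right of 0 in all populations shown, and Cep83os lies near 0 in CMP and MEP.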

How the data were processed

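Sorted fetal liver progenitors were lysed and their cDNA prepared with the Smart-seq2 method and tagmented, per the labels' protocols. Reads carry neither strand nor molecule marks, so intervals and floors cover counting error only. The authors deposited whole-number counts of reads for each Ensembl gene and library. Per the submitters' processing notes, featureCounts and the mouse build mm10 (GRCm38) were used; its version, the aligner and the annotation were not given in the sources. The GMP table lists 27892 genes and 43 spike-ins, and the spike-ins entered neither library size nor test. Symbols came from GENCODE M21, with 543 genes unmatched.

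All 13 GMP libraries were fitted in 1 quasi-likelihood model (edgeR 4.0.16, R 4.3.3; robust, TMM factors, filterByExpr with minimum count 10 and minimum total 15) with contrast KO minus WT. Unless another tool is named, each adjusted p is edgeR's, by the Benjamini-Hochberg method across the genes tested, with 0.05 as the threshold. Differences between KO effects were interaction terms in joint fits with CMP or MEP libraries. The fold changes and calls given for CMP and MEP came from the same joint fits. Standard errors were taken as the size of the log2 fold change over the square root of F, an approximation for genes with few reads. Levels in CPM use TMM-scaled library sizes. Exact tests of 3 against 3 libraries cannot go below p = 0.1, so none was run. Pooled ratios have exact 95% intervals and are given for 1 to 3 reads over a group. The length index uses genes of at least 10 CPM. Transcript identities came from local alignment (Biopython 1.88) of the longest GENCODE transcripts.

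Members, gene lists and motifs were chosen with earlier results of these data known. Named genes are Smarcd2, each named gene that passed, up to 4 members of each list with the smallest p, tested sorting antigens and neighbours of Smarcd2, and genes whose KO effects differed; others are marked. The scripts were tested on simulated data. Alternatives were RLE factors, other filters, DESeq2 1.42.0, limma 3.58.1, covariates and leaving out libraries. The LSK libraries were not used here.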

Additional observations from a re-analysis of the deposited data

Results flagged for a closer look

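Among 10 sets of values over the 7 GMP HET libraries, examined for a library far from the rest, 2 held one, and both times it was GMP HET 8. It had 27233 genes with reads, where the next HET library had 17575, and 40.9 CPM of Egr1, where the next had 22.44 CPM. Chance alone picks out about 1 in 20 such sets. The KO effect differed between populations, in the test of the difference itself, by -5.04 on the log2 scale for Cep83os between GMP and CMP and by -4.83 between GMP and MEP. For Ass1 it differed by -3.73 and for Kpna6 by -3.50 between GMP and MEP.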

How the results depend on the processing

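Beside the 25 genes of the KO against WT comparison, 18 passed with RLE factors, 22 with a minimum count of 30, 43 without a count filter and 9 with KO and WT libraries only. DESeq2 called 81. limma called 34, of which 22 were higher and 12 lower, while edgeR called 5 higher and 20 lower. Of the 25, 7 still passed with KO and WT libraries only, 8 with limma and all 25 with DESeq2. S100a9, Camp, Ear1, Ear2, Hpse and C3 were among those that limma did not call. With the title series as a block 3 passed, of which 2 were among the 25, and the length index as a covariate gave 55. The spike-in share as a covariate gave 1696 (508 higher, 1188 lower; median log2 fold change of all genes -0.44), or 0 without HET 8, chosen after seeing the data. Within series M32 the edgeR count was 0 (2195 at an unadjusted p under 0.05). Leaving out 1 library gave 5 to 222.

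The 1 gene whose effect differed from CMP became 0 with limma (883 at an unadjusted p under 0.05), 2 with RLE factors, 2 with a minimum count of 30, 24 without HET 8 (chosen after seeing the data), and 0 to 453 when 1 KO or WT number was left out. Against MEP the 5 became 11 with limma, 3 with RLE factors, 2 with the minimum count, 29 without HET 8 and 0 to 196. With the replicate number as a block edgeR called 0 against CMP (829 at an unadjusted p under 0.05) and 0 against MEP (500). The blocked adjusted p was 0.270 for Cep83os against CMP, and 0.413 for Cep83os and Ass1 and 0.724 for Kpna6 against MEP. Deviations of same-numbered libraries correlated at -0.0471 to 0.738 with CMP (over 0.1 in 9 of 13 pairs; 6 of 13 best with their own number) and at -0.447 to 0.412 with MEP (over 0.1 in 5 of 13; 3 of 13). No label says that a number marks 1 fetus and not every pair passed 0.1, so the numbers were not taken to pair the libraries.

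Over named genes and alternatives 1411 values kept direction and side of the threshold, 298 kept direction but lost the call, 63 gained it and 28 turned sign. All but 1 of these came from the fits with spike-in share, the exception being Zmat3 at -3.19 with the title series as a block, and the cause was not tested. The log2 fold changes that turned with that covariate were Cd34 -2.38, Prg2 -1.45, Prg3 -1.38, Spi1 -0.47, Cpa3 -0.44, Sesn2 1.07, Lyz2 -2.78, Ier2 -0.20, Cebpe -2.60 and Smarce1 -0.084. With it and without HET 8 they were Cd34 -0.55, Prg2 -8.74, Prg3 -4.43, Id1 -0.60, Cpa3 -0.55, Sesn2 9.96, Kit 4.65, Lyz2 -3.28, Ier2 -1.27, Hp 0.12, Cebpe -4.04, Hyou1 10.75, Smarce1 -0.91, Ccdc47 0.25, F13a1 1.41, Sel1l 0.20 and Syvn1 0.10.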

Other observations

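Lists of other cell types and programmes held no gene that passed. Of 17 tested interferon response genes all KO libraries lay above all WT libraries in 2 and below in 1, with a median log2 fold change of 0.03. Over all genes tested, 5.83% lay above and 8.36% below in this way. Among 24 mitosis genes the KO libraries were lowest in 3, and the median was 0.06. The 13 megakaryocyte genes had a median of 0.45, the 9 lymphoid genes 0.34, the 6 dendritic and antigen presentation genes 1.36, and the 9 endothelial and stromal genes 1.19. The 12 fetal liver macrophage genes had a median of -1.12, with 1 gene above and 2 below, and the 10 heat shock genes -0.12.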
